A study of Mus musculus with 4 samples.

Results

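The Bcl-2 family genes set whether a lymphocyte lives or dies through its mitochondria, and 10 of them are described here by name: Bcl2, Bcl2l1, Mcl1, Bcl2l11, Bax, Bak1, Bid, Bad, Bbc3 and Pmaip1. They were taken as a fixed list of gene symbols with no threshold on expression, although earlier results of these data were known when the list was drawn up, and all 10 were among the 19339 genes listed in the libraries. The data are bulk RNA-seq of TCRβ+CD8αα+ intraepithelial lymphocytes (IELs) sorted from the small intestine of C57BL/6 mice, with 2 libraries labelled control (replicates 1 and 3) and 2 labelled Kdm6b-deficient (replicates 1 and 3). The floxed Kdm6b gene was carried by every mouse, as Kdm6b fl/fl without Cre in the control group and Kdm6b fl/fl-CD4Cre in the deficient group, where the CD4Cre transgene deletes from the late double-negative stage of thymic development and hence in most T cells, not in IELs alone. The labels name no treatment, ages are not given in the sources used here, and each library was RNA pooled from mice of 1 genotype, so the spread within a group is between pools and not between single mice.

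Anti-apoptotic proteins (BCL-2, BCL-XL from Bcl2l1, MCL-1) hold the effectors BAX and BAK in check at the outer mitochondrial membrane. BH3-only proteins (BIM from Bcl2l11, BID, BAD, PUMA from Bbc3, NOXA from Pmaip1) sense stress or loss of growth factor and either neutralise the anti-apoptotic proteins or activate the effectors, which then open the membrane and release cytochrome c. IELs depend on IL-15, whose signal through JAK3 and STAT5 is known to sustain BCL-2 and MCL-1, and Kdm6b encodes a demethylase that removes the repressive methyl marks on lysine 27 of histone H3. The question put to these libraries was whether the survival and death genes differed between IELs labelled Kdm6b-deficient and control.

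The libraries differed in more than their label. Kdm6b itself was at 16.5 and 16.0 FPKM in control replicates 1 and 3, and at 18.2 and 11.1 FPKM in Kdm6b-deficient replicates 1 and 3, FPKM being a fragment count divided by transcript length and by library size. The targeted gene was therefore not lower in the library labelled Kdm6b-deficient replicate 1, and its log2 fold change was −0.18 (SE 0.29, limma adjusted p = 0.886). A gene-level FPKM does not separate the floxed exons from the rest of the transcript. Markers of the sorted cells (Cd3d, Cd3e, Cd3g, Cd247, Ptprc, Cd8a, Cd160, Itgae, Gzma, Gzmb) were all present, and 10 of 10 had a lower mean in the libraries labelled Kdm6b-deficient, 6 of them without overlap (18.6% of all genes tested). Cd8b1, the CD8β gene that the sort excluded, stayed between 0 and 1.64 FPKM, whereas Cd4, also excluded, was at 30.6, 10.1, 30.5 and 3.17 FPKM in control 1, control 3, Kdm6b-deficient 1 and Kdm6b-deficient 3. All 22 epithelial markers checked had a higher mean in the libraries labelled Kdm6b-deficient, and none was at 0 in any library. Their summed FPKM was 1260 and 4030 in the controls and 3803 and 9994 in the Kdm6b-deficient libraries, so that control 3 and Kdm6b-deficient 1 lay close together and the other pair far apart. Of 10 markers of cells outside the gate, Cd4 and Cd8b1 among them, 7 were high enough to test, with 2 higher and 0 lower without overlap (18.4% and 18.6% of all genes tested), and Lyz2, a myeloid and Paneth cell gene, was at 365 and 253 FPKM in the controls and 396 and 626 FPKM in the Kdm6b-deficient libraries. In bulk RNA, fewer cells of a type and less RNA per cell cannot be told apart.

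In the control libraries the 10 genes spanned a wide range of levels, and FPKM, being per length, lets them be ordered. Bax was highest (mean 137 FPKM), followed by Bcl2 (103), Bcl2l11 (68.4), Pmaip1 (57.1), Bcl2l1 (52.4), Mcl1 (39.0), Bid (28.7), Bad (20.3), Bak1 (4.22) and Bbc3 (2.995). From Bcl2l11 down to Bid, the ranges of neighbours in this order overlapped over the 2 control libraries, although within each of them Bcl2l11 lay above Bcl2l1, Bcl2l1 above Mcl1 and Mcl1 above Bid, and only the place of Pmaip1 differed. By contrast, Bax, Bcl2, Bad, Bak1 and Bbc3 did not overlap their neighbours. Bax and Bcl2 stood above 96.1% and 94.7% of all listed genes, and Bbc3 above 49.3%. In the libraries labelled Kdm6b-deficient, Pmaip1 was above Bcl2 in both replicates, whereas it was below Bcl2 in both controls.

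**Figure D1:**
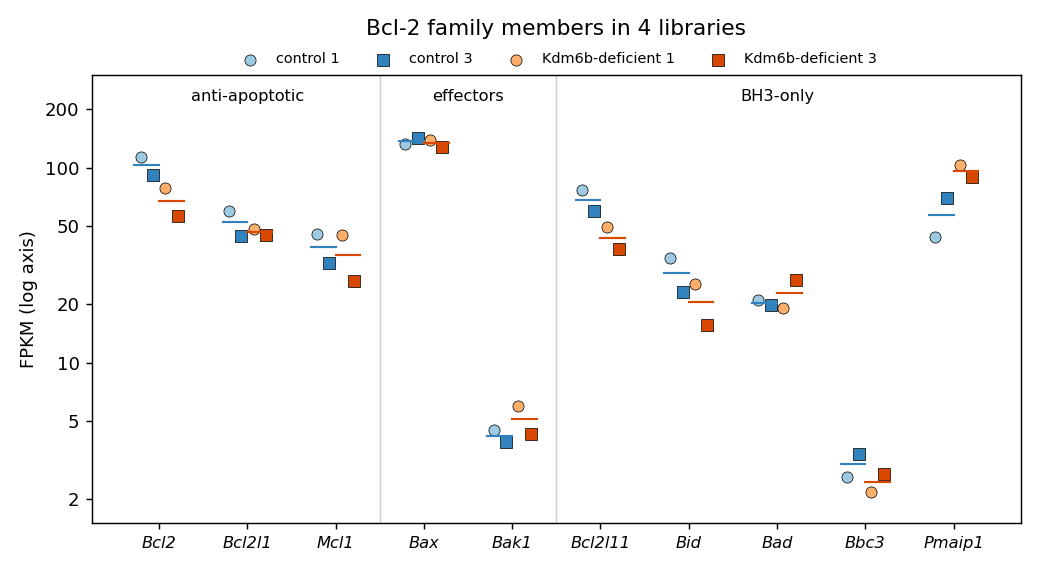
FPKM of the 10 Bcl-2 family genes on a log axis, grouped by role, with 1 point per library (blue, control; orange, labelled Kdm6b-deficient; circles, replicate 1; squares, replicate 3) and a short line at each group mean. Bcl2 and Bcl2l11 lie lower and Pmaip1 higher in both Kdm6b-deficient libraries, whereas Bax stays between 128 and 141 FPKM in all 4.

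Of the 10 genes, 2 were lower (Bcl2 and Bcl2l11) and 1 was higher (Pmaip1) in both libraries labelled Kdm6b-deficient than in both controls, and the other 7 overlapped. Among all 12009 genes tested, 18.6% were lower in this way and 18.4% higher, so a count of 3 among 10 members is near the background. By limma on log2(FPKM + 1) with no block, no member had an adjusted p under 0.05 (0% of all genes, 0 genes in all). With the replicate number as a block, 3 members and 1019 of the 12009 genes did, but the labels do not say what that number marks. Without the block, 3 members had an unadjusted p under 0.05, the same Bcl2, Bcl2l11 and Pmaip1, against 642 genes in all (5.35%). No member passed a log2 fold change of 1 in either direction, which 6.2% of all genes passed upward and 0.441% downward. The median log2 fold change was −0.15 over the 10 members and 0.00 over all genes tested. With 2 libraries against 2, an exact two-sided permutation test of a single value cannot go below p = 0.333.

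**Figure D2:**
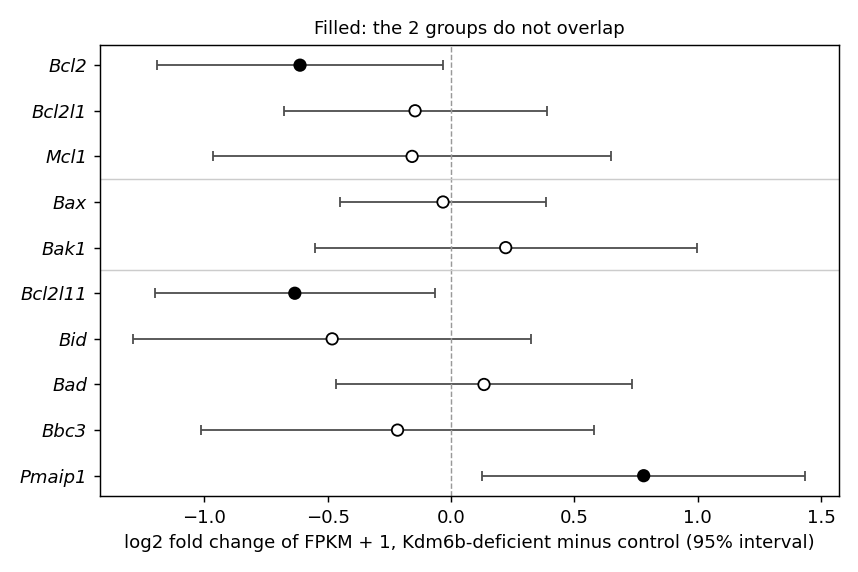
Log2 fold change of FPKM + 1 for each member, Kdm6b-deficient minus control, as points with the 95% interval from limma. Filled points mark genes whose 2 groups do not overlap (Bcl2, Bcl2l11 and Pmaip1), and the dashed line is 0.

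Among the 3 anti-apoptotic members, only Bcl2 did not overlap between the groups in FPKM. Bcl2 was at 114 and 91.7 FPKM in control 1 and 3 and at 78.2 and 56.6 FPKM in Kdm6b-deficient 1 and 3. Both Kdm6b-deficient libraries lay below both controls, and the gap between the groups, from 91.7 to 78.2, was narrower than the gap within either group. The mean was 103 ± 15.8 FPKM (SD, n = 2) in control and 67.4 ± 15.3 FPKM (n = 2) in the libraries labelled Kdm6b-deficient. The log2 fold change was −0.61 (95% interval −1.19 to −0.03, limma adjusted p = 0.755), and it was −0.38 without Kdm6b-deficient 3. Control 1, with the highest Bcl2, had the lowest epithelial marker level and Kdm6b-deficient 3, with the lowest Bcl2, the highest, whereas of the middle pair control 3 was slightly higher in both. Between control 3 and Kdm6b-deficient 1, the pair of libraries with the closest epithelial level, the difference was −0.23 with no test.

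Bcl2 (Entrez 12043) lies on the minus strand of chromosome 1 (GRCm38, chr1:106538176-106714290). The study designed primers for the Bcl2 transcript, its promoter and a site within the gene, and they are shown because they fix which parts of Bcl2 its other assays could read, beside the whole-gene FPKM used here. Each was matched to the GENCODE M21 transcripts or the RefSeq promoter window.
Bcl2 transcript, forward: tgggatgcctttgtggaactat
Bcl2 transcript, reverse: agagacagccaggagaaatcaaac
Bcl2 site named ERE, forward: cacctgtggtccatctgac
Bcl2 site named ERE, reverse: ctgaagagttcctccaccac
Bcl2 promoter, forward: gctcagaggagggctttct
Bcl2 promoter, reverse: ccggcctcttacttcattct
The transcript forward primer spans the junction of exons 1 and 2 of Bcl2-201, with both of its parts in coding sequence, and its partner lies in coding exon 2 (chr1:106543334-106543357), so this product reads spliced mRNA. The pair for the site the study calls an ERE (oestrogen response element) encloses 148 bases (chr1:106712474-106712621) in coding exon 1 of both Bcl2 transcripts that hold it. The promoter pair encloses 97 bases (chr1:106714344-106714440) upstream of the RefSeq start.

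Bcl2l1 (Entrez 12048, chr2:152758732-152833803), which encodes BCL-XL, was at 60.2 and 44.6 FPKM in the controls and at 48.6 and 44.9 FPKM in the Kdm6b-deficient libraries. Control 1 alone stood above the rest, which lay close together. The log2 fold change was −0.15 (95% interval −0.68 to 0.39, adjusted p = 0.871), and without control 1 it was 0.07. Mcl1 (Entrez 17210, chr3:95656944-95663179), whose short-lived protein guards BAK and binds NOXA, was at 45.7 and 32.3 FPKM in the controls and at 45.01 and 26.2 FPKM in the Kdm6b-deficient libraries. Here the replicate number separated the libraries and the label did not, with both replicate 1 libraries near 45 FPKM. Its log2 fold change was −0.16 (95% interval −0.96 to 0.65, adjusted p = 0.910), turning to 0.09 without control 1 and to 0.22 without Kdm6b-deficient 3. Bcl2 made up 51.9% and 54.4% of the summed FPKM of these 3 genes in the controls and 45.5% and 44.3% in the libraries labelled Kdm6b-deficient, without overlap.

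Of the effectors, Bax (Entrez 12028, chr7:45461695-45466903) varied little in FPKM. It was at 132 and 141 FPKM in the controls and at 139 and 128 FPKM in the Kdm6b-deficient libraries, with the groups interleaved. The log2 fold change was −0.03 (95% interval −0.45 to 0.38, adjusted p = 0.968). Bak1 (Entrez 12018, chr17:27019812-27028627), the other effector, was at 4.51 and 3.92 FPKM in the controls and at 5.98 and 4.28 FPKM in the Kdm6b-deficient libraries. These values overlapped, with a log2 fold change of 0.22 (95% interval −0.55 to 0.99, adjusted p = 0.862), and 0.02 without Kdm6b-deficient 1. The FPKM ratio of Bax to Bak1 was 29.2 and 36.1 in the controls and 23.3 and 29.9 in the Kdm6b-deficient libraries, so that Bax was the far more abundant effector transcript throughout.

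The BH3-only genes differed in direction. Bcl2l11 (Entrez 12125, chr2:128126038-128162547), which encodes BIM, the main BH3-only protein of T cells deprived of cytokine, was at 77.1 and 59.8 FPKM in the controls and at 49.5 and 38.1 FPKM in the Kdm6b-deficient libraries. As for Bcl2, both Kdm6b-deficient libraries lay below both controls and Kdm6b-deficient 3 was lowest. The mean was 68.4 ± 12.2 FPKM (SD, n = 2) in control and 43.8 ± 8.05 FPKM (n = 2) in the libraries labelled Kdm6b-deficient. The log2 fold change was −0.63 (95% interval −1.20 to −0.07, limma adjusted p = 0.755). Between control 3 and Kdm6b-deficient 1 the difference was −0.27.

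Pmaip1 (Entrez 58801), which encodes NOXA, the BH3-only protein that binds MCL-1 and marks it for degradation, differed in the other direction. It was at 44.3 and 70.0 FPKM in the controls and at 104 and 89.3 FPKM in the Kdm6b-deficient libraries. Both Kdm6b-deficient libraries lay above both controls. The lowest value was in control 1, which had the lowest epithelial level, and the highest in Kdm6b-deficient 1. The mean was 57.1 ± 18.2 FPKM (SD, n = 2) in control and 96.6 ± 10.3 FPKM (n = 2) in the Kdm6b-deficient libraries. The log2 fold change was 0.78 (95% interval 0.13 to 1.43, limma adjusted p = 0.755), and it was 0.46 without control 1. Between control 3 and Kdm6b-deficient 1 it was 0.56.

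**Figure D3:**
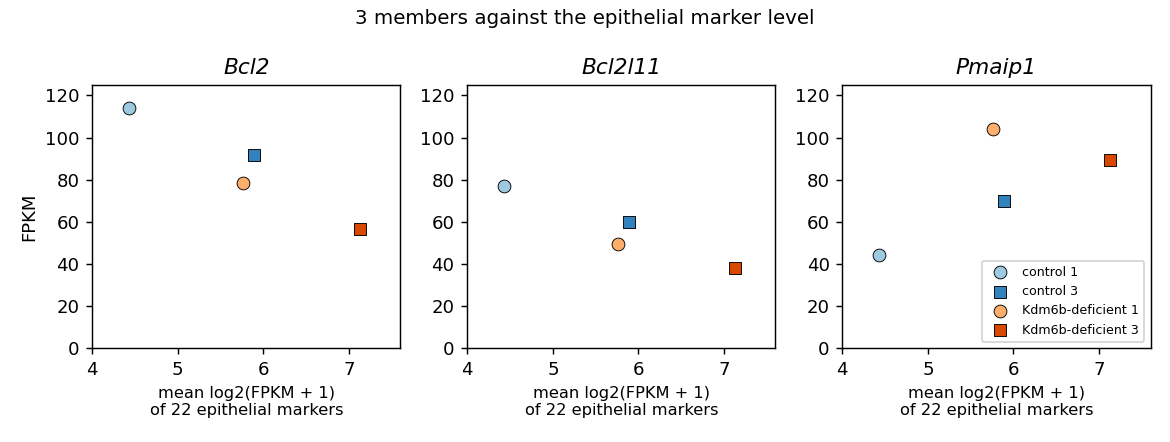
FPKM of Bcl2, Bcl2l11 and Pmaip1 against the mean log2(FPKM + 1) of 22 epithelial markers, 1 point per library (blue, control; orange, labelled Kdm6b-deficient; circles, replicate 1; squares, replicate 3). Control 3 and Kdm6b-deficient 1 share nearly the same epithelial level (5.89 and 5.76), and there Bcl2 was at 91.7 and 78.2 FPKM, Bcl2l11 at 59.8 and 49.5 FPKM and Pmaip1 at 70.0 and 104 FPKM.

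Bid (Entrez 12122, chr6:120893119-120917062), cleaved by caspase 8 to link death receptors to mitochondria, was at 34.5 and 23.0 FPKM in the controls and at 25.2 and 15.7 FPKM in the Kdm6b-deficient libraries. Its groups overlapped, both replicate 1 libraries lying above both replicate 3 libraries, and the log2 fold change was −0.48 (95% interval −1.29 to 0.32, adjusted p = 0.763), moving to −0.20 without control 1, −0.77 without control 3, −0.81 without Kdm6b-deficient 1 and −0.16 without Kdm6b-deficient 3. Bad (Entrez 12015, chr19:6941861-6951905), held inactive by growth factor signals, was at 21 and 19.7 FPKM in the controls and at 19.0 and 26.4 FPKM in the Kdm6b-deficient libraries. Only Kdm6b-deficient 3 stood apart, the log2 fold change was 0.13 (95% interval −0.47 to 0.73, adjusted p = 0.895), and without that library it was −0.09. Bbc3 (Entrez 170770, chr7:16308398-16318334), which encodes PUMA, a p53 target, was the lowest member at 2.59 and 3.4 FPKM in the controls and 2.17 and 2.69 FPKM in the Kdm6b-deficient libraries, with overlap (log2 fold change −0.22, 95% interval −1.01 to 0.58, adjusted p = 0.871, and −0.07 without control 3).

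Summed over the 5 BH3-only genes, the FPKM was 179 and 176 in the controls and 200 and 172 in the libraries labelled Kdm6b-deficient, and these overlapped. The makeup of the sum differed. Bcl2l11 gave 43.0% and 34.01% of it in the controls against 24.8% and 22.1%, while Pmaip1 gave 24.7% and 39.8% against 52.0% and 51.9%. In the controls the leading BH3-only transcript was thus Bcl2l11 in replicate 1 and Pmaip1 in replicate 3, and in both Kdm6b-deficient libraries it was Pmaip1.

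Ratios of members within a library do not depend on the scaling between libraries. The FPKM ratio of Bcl2 to Bcl2l11, a survival gene set against its main BH3-only antagonist in T cells, was 1.48 and 1.53 in the controls and 1.58 and 1.49 in the libraries labelled Kdm6b-deficient. It was nearly constant, and the groups overlapped, although Bcl2 ranged from 56.6 to 114 FPKM and Bcl2l11 from 38.1 to 77.1 FPKM over the same libraries. The summed FPKM of the 3 anti-apoptotic members over that of the other 7 was 0.696 and 0.525 in the controls and 0.498 and 0.420 in the Kdm6b-deficient libraries, without overlap and with control 3 close to Kdm6b-deficient 1. Another pair of ratios was chosen after the values were seen. Bcl2 to Bax was 0.865 and 0.648 against 0.562 and 0.442, and Pmaip1 to Mcl1 was 0.970 and 2.16 against 2.31 and 3.42.

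**Figure D4:**
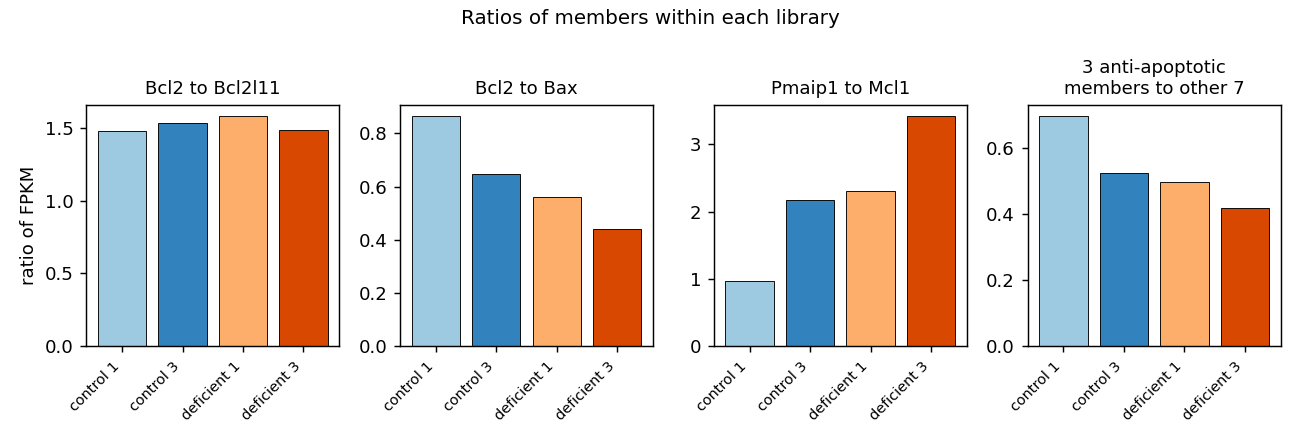
Ratios of FPKM between members within each library, as bars from 0 (blue, control; orange, labelled Kdm6b-deficient). Bcl2 to Bcl2l11 stays between 1.48 and 1.58, whereas Bcl2 to Bax and the 3 anti-apoptotic members over the other 7 step down, and Pmaip1 to Mcl1 steps up, from control 1 to Kdm6b-deficient 3.

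By the root mean square difference of centred log2(FPKM + 1) over the 4 libraries, the genes most like Bcl2 among 5855 others at 10 FPKM or more in every library were Spin2c (0.0089), Litaf (0.016) and Plcxd2 (0.028). Bcl2l11 was 6th (0.038), and 115 genes lay within 0.1. Bid was 256th, Mcl1 1352nd, Bcl2l1 1454th, Bax 2668th, Bad 4627th and Pmaip1 5572nd. These places rest on 4 libraries only and carry no test.

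Because Bcl2 and Bcl2l11 tracked each other, the 250 bases before the RefSeq start of each (GRCm38.p6; Bcl2, chr1:106714291-106714540, minus strand; the first of 2 starts of Bcl2l11, chr2:128125788-128126037, plus strand) are shown, with each CG in capitals. The Polycomb complex that places the mark removed by Kdm6b is known to act at CG-rich promoters, but its part in these values was not tested. By ChIP-qPCR in Kdm6b-deficient IELs, the study found this mark unchanged at the Bcl2 promoter and higher at the site named ERE.
Bcl2 promoter: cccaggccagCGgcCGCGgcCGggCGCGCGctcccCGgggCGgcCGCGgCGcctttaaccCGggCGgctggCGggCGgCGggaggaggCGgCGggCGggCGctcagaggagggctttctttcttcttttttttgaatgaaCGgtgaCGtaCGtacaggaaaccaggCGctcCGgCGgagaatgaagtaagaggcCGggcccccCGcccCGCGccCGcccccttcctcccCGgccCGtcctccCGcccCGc
Bcl2l11 promoter: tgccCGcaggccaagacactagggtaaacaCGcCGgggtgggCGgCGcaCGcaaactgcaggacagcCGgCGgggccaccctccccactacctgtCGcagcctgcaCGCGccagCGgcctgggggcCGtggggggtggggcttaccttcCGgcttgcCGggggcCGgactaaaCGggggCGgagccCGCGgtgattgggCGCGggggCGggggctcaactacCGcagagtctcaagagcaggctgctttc
The Bcl2 window held 36 CG and the Bcl2l11 window 24, and the second Bcl2l11 start held 30. Windows on the chromosome of Pmaip1 were left out, so none is given for that gene. Across the 15 windows of the other 9 members the median was 21 CG, and the median GC content 64.4%. Over the 32851 windows of this length that were kept, of genes expressed here or not, these were 6 CG (25th and 75th percentiles 2 and 16) and 52.4%. CG counts ranged from 0 in a Bcl2l1 window to 37 in a Bbc3 window. Of the motifs searched on both strands, the FOXO motif GTAAACA was in the Bcl2l11 window shown and in a Bbc3 window, as in 3.17% of all windows, the RUNX motif TGTGGT was in the Bak1 window, as in 14.05%, and the STAT motif TTCNNNGAA, found in 7.02%, was in none of the 15. No window of a member held more than 1 of these motifs, so none overlapped another.

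The other BCL-2 relatives were read from a list of 16, of which 13 passed the level filter. None had an adjusted p under 0.05, 1 had an unadjusted p under 0.05, 5 were lower and 4 higher without overlap, and the median log2 fold change was −0.08, where over all genes tested 5.35% had such a p, 18.6% were lower and 18.4% higher without overlap, and the median was 0.00. Bok, an effector-like relative, was at 1.26 and 1.5 FPKM in the controls and at 2.39 and 8.91 FPKM in the Kdm6b-deficient libraries, with Kdm6b-deficient 3 far above the rest (log2 fold change 1.29, adjusted p = 0.755). Bcl2l14 was at 2.72 and 5.97 FPKM against 6.45 and 10.4 FPKM, and Bcl2l13, a mitochondrial outer membrane protein, at 14.3 and 12.6 FPKM against 9.02 and 6.35 FPKM (log2 fold changes 0.86 and −0.75, adjusted p = 0.755 for each). Bok and Bcl2l14 were highest in the library with the highest epithelial level, whose part in these values was not tested. The A1 genes, near-identical paralogs (Bcl2a1a, Bcl2a1b, Bcl2a1c and Bcl2a1d) between which reads may have been split, are given as a sum, which was 418 and 330 FPKM in the controls and 438 and 252 FPKM in the Kdm6b-deficient libraries, overlapping and higher than Bcl2 in every library. The remaining tested relatives, Bcl2l15, Bik, Bmf, Bnip3l, Bcl2l12 and Bnip3, had log2 fold changes between −0.51 and 0.39. Bcl2l2 stayed under 1 FPKM and Hrk at or near 0 in all libraries, and Bcl2l10 was not analysed here.

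Downstream of the mitochondrial pore, 14 genes of caspase activation and the outer membrane were all tested, with 0 passing at an adjusted p under 0.05, 2 at an unadjusted p, 6 higher and 4 lower without overlap, and a median log2 fold change of 0.21, against 5.35%, 18.4%, 18.6% and a median of 0.00 over all genes tested. The 22 epithelial markers, all with a positive log2 fold change (median 1.32), moved with this list, and their part in it was not tested. Endog, a mitochondrial nuclease, was at 2.09 and 2.35 FPKM in the controls against 4.67 and 4.44 FPKM (log2 fold change 0.79). Aifm1, the apoptosis-inducing factor, was at 26.3 and 34.4 FPKM against 39.4 and 54.1 FPKM (0.60), and Vdac1, the outer membrane channel, at 37.99 and 46.9 FPKM against 57.4 and 67.1 FPKM (0.55), each with an adjusted p of 0.755. Of 15 regulators of the members, 14 were tested, with 0 at an unadjusted p under 0.05, 5 lower and 0 higher without overlap (18.6% and 18.4% of all genes), and a median of −0.11. Over the same libraries the epithelial markers were higher and those of the sorted cells lower, and their part in the regulators was not tested. Foxo1, a transcription factor of the FOXO family, was at 32.5 and 22.8 FPKM against 22.8 and 10.9 FPKM (log2 fold change −0.74), Jun at 153 and 227 FPKM against 214 and 441 FPKM (0.72), and Akt1, the kinase that holds FOXO factors and BAD inactive, at 22.1 and 17.8 FPKM against 17.8 and 11.3 FPKM (−0.46), with adjusted p of 0.755, 0.755 and 0.761. Of the 10 genes of IL-15 reception and signalling, all tested, 8 had a negative and 2 a positive log2 fold change (median −0.28), 3 were lower and 1 higher without overlap (18.6% and 18.4% of all genes), and 1 had an unadjusted p under 0.05 (5.35% of all genes). The 10 markers of the sorted cells all had negative log2 fold changes as well, with a median of −0.52, and their part in this list was not tested. The gene past the unadjusted p was Jak3, at 83.4 and 53.8 FPKM in the controls and 41.0 and 42.9 FPKM in the Kdm6b-deficient libraries (log2 fold change −0.66, adjusted p = 0.755). Il2rb and Il2rg, the receptor chains that IL-15 shares with IL-2, had log2 fold changes of −0.46 and −0.42 (adjusted p = 0.755 and 0.793).

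How the members compare depends on what the libraries are scaled to. Per 1000 FPKM of 4 leukocyte genes (Cd3d, Cd3e, Cd3g and Ptprc, whose sum was 3451 and 2750 FPKM in the controls and 2798 and 2013 FPKM in the Kdm6b-deficient libraries), Bcl2 was at 33.0 and 33.3 against 27.96 and 28.12. Bcl2l11 on this scale was at 22.3 and 21.7 against 17.7 and 18.9. On this scale the replicates of both genes lay closer together than in FPKM, and the labels still did not overlap. Pmaip1 was at 12.8 and 25.4 against 37.1 and 44.4, and Bak1, at 1.31 and 1.43 against 2.14 and 2.13, no longer overlapped either. Of all genes tested, 3.397% were lower and 35.0% higher without overlap on this scale. Bax, at 38.2 and 51.4 against 49.8 and 63.5, varied more here than in FPKM. This scaling raised the median log2 fold change of all genes from 0.00 to 0.34, and relative to that median Bcl2 was at −0.58, Bcl2l11 at −0.60, Pmaip1 at 0.81, Bcl2l1 at −0.12, Mcl1 at −0.13, Bbc3 at −0.28 and Bax at 0.0014. With the epithelial level as a covariate in limma, which leaves 1 residual degree of freedom, the log2 fold changes were −0.26 for Bcl2, −0.30 for Bcl2l11 and 0.57 for Pmaip1, with adjusted p of 0.850, 0.825 and 0.535. Under that covariate Mcl1 was at 0.41 and Bid at 0.07, the reverse of their signs in FPKM.

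**Figure D5:**
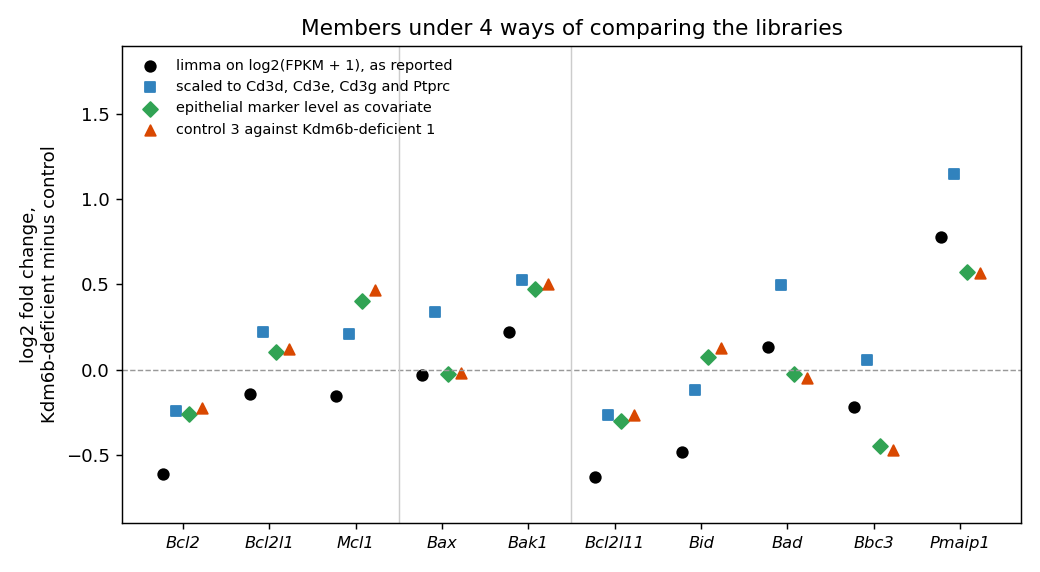
Log2 fold change of each member, Kdm6b-deficient minus control, by limma as reported (black circles), after scaling to Cd3d, Cd3e, Cd3g and Ptprc (blue squares), with the epithelial marker level as a covariate (green diamonds) and between control 3 and Kdm6b-deficient 1 alone (orange triangles). Bcl2 and Bcl2l11 stay below 0 and Pmaip1 above 0 in all 4. As their groups do not overlap in FPKM, only the scaling and the covariate could have turned these signs. Bcl2l1, Mcl1, Bid and Bad change sign with the covariate and between control 3 and Kdm6b-deficient 1. Bax and Bbc3 change sign only under the scaling, which shifts the median of all genes to 0.34.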

How the data were processed

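Libraries were grouped by the genotype label. The cells were sorted as CD45+CD4-TCRβ+CD8α+CD8β- and sequenced at BGI. The deposited values are gene-level FPKM made by the authors from reads mapped to mm10 with HISAT and Bowtie2 and counted with RSEM. The submitters' processing notes give Bowtie2 2.2.5 and RSEM 1.2.8. The annotation and strandedness of the counting are not given in the sources used here. Genes that overlap a member (Cox4i2 with Bcl2l1, Acoxl with Bcl2l11, Ggnbp1 with Bak1, Gpr137 with Bad) may therefore share reads with it. Entrez identifiers were matched to RefSeq (GRCm38.p6) for 18467 of 19339 genes.

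Depth is unknown, because the low FPKM values of different libraries shared no clear step. FPKM was taken as log2(FPKM + 1), which understates the change of low genes. Genes at 1 FPKM or more in at least 2 libraries (12009) were tested by limma 3.58.1 in R 4.3.3 with a mean-variance trend, 2 libraries against 2, with Benjamini-Hochberg adjustment over all of them and no block. The script was tested on simulated data, where it recovered few genes changed by a log2 of 1 and most changed by a log2 of 2. Its recovery in the measured libraries was not tested. There, no gene had an adjusted p under 0.05. This held for Cdx1, an epithelial marker with a log2 fold change of 1.99 (limma adjusted p = 0.755). Alternatives covered the pseudocount, the filter, 3 other scalings (median of ratios, quantile, and Cd3d, Cd3e, Cd3g and Ptprc), the epithelial covariate, the replicate number, the trend, ratios of group means and each library left out. All 10 members were named. From the lists of relatives, downstream genes, regulators and IL-15 genes, the 3 with the largest log2 fold change in either direction were named with their values, besides those singled out by a count or a sum, and the genes most like Bcl2 were the 3 with the smallest difference in pattern. The members and lists were chosen with earlier results of these data known. Primer sequences came from the study's supplementary tables and promoters from RefSeq.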

Additional observations from a re-analysis of the deposited data

How the results depend on the processing

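Across the 16 alternatives that gave a fold change, Bcl2 and Bcl2l11 stayed lower and Pmaip1 higher in the libraries labelled Kdm6b-deficient. Because the groups of these genes did not overlap in FPKM, only the 3 other scalings and the epithelial covariate could have turned their signs. Over alternatives that used all 4 libraries, the log2 fold changes of Bcl2, Bcl2l11 and Pmaip1 ran from −0.63 to −0.24, from −0.67 to −0.26 and from 0.57 to 1.15. With a library left out they ran from −0.84 to −0.38, from −0.82 to −0.45 and from 0.46 to 1.10. Signs of other members turned. Scaled to Cd3d, Cd3e, Cd3g and Ptprc, the log2 fold change was 0.22 for Bcl2l1, 0.21 for Mcl1, 0.34 for Bax, 0.059 for Bbc3 and 0.17 for Kdm6b, but this scaling shifted the median of all genes to 0.34, and relative to it they were at −0.12, −0.13, 0.0014, −0.28 and −0.17. With the epithelial covariate it was 0.10 for Bcl2l1, 0.41 for Mcl1, 0.072 for Bid, −0.024 for Bad and 0.14 for Kdm6b. Between control 3 and Kdm6b-deficient 1, a comparison chosen after the data were seen, it was 0.12 for Bcl2l1, 0.47 for Mcl1, 0.13 for Bid, −0.048 for Bad and 0.18 for Kdm6b. Leaving out each library in turn gave ranges from −0.36 to 0.067 for Bcl2l1, from −0.54 to 0.22 for Mcl1, from −0.093 to 0.028 for Bax, from −0.094 to 0.36 for Bad, from −0.81 to −0.16 for Bid, from −0.36 to −0.07 for Bbc3, from 0.02 to 0.42 for Bak1 and from −0.52 to 0.16 for Kdm6b. The lone library left in a group was then assumed to vary like the others.

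The count of members at an unadjusted p under 0.05 was 1 under the Cd3 and Ptprc scaling (5.22% of all genes), 1 with the epithelial covariate (8.60%), 0 in limma without a trend (5.46%, and 0 genes by adjusted p) and 0 to 2 with a library left out (1.92% to 12.7%). Members past a log2 fold change of 1 numbered 1 (Pmaip1) under that scaling and 0 to 1 with a library left out. Members higher in every Kdm6b-deficient library numbered 2 under that scaling (35.0% of all genes) and 1 to 3 with a library left out (28.9% to 39.2%), and those lower 4 to 5 (28.6% to 39.4%), a looser condition with fewer libraries. Genes past a log2 fold change of 1 in either direction, 797 as reported, numbered 1381 and 1451 at pseudocounts of 0.1 and 0.01, 1395 under that scaling, 493 with the covariate, 1314 by ratios of group means and 364 to 1577 with a library left out. The covariate gave 91 genes with an adjusted p under 0.05. The ratio that replaced Bcl2 to Bcl2l11 was 0.696, 0.525, 0.498 and 0.420 in control 1, control 3, Kdm6b-deficient 1 and Kdm6b-deficient 3. The cause of these changes was not tested.

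Libraries with the same replicate number deviated together (Pearson 0.56 and Spearman 0.54 across 12009 genes), but the labels do not say what the number marks. Blocking on that number, limma gave 3 members (Bcl2, Bcl2l11 and Pmaip1, adjusted p = 0.0255, 0.0270 and 0.0337) and 1019 of the 12009 genes an adjusted p under 0.05. An unadjusted p under 0.05 was reached by 4 members and by 22.8% of all genes. The epithelial level also rose from replicate 1 to 3, from 4.43 to 5.89 in control and from 5.76 to 7.13 in the Kdm6b-deficient group. Its part in these counts was not tested. At a minimum of 5 FPKM, Bak1 and Bbc3 were not tested. Read depth is unknown, and 2 libraries a group limit the precision of every value.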
